A study of Mus musculus with 5 samples.

Results

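The genes described here are 10 imprinted genes, H19, Igf2, Peg10, Peg3, Mest, Impact, Rian, Meg3, Grb10 and Cdkn1c, among the 32285 genes listed in each count matrix. They were matched by symbol, and all 10 were found in all 5 libraries. They were chosen with earlier results of these libraries known, so their levels, their spread over barcodes and their detection together with H19 are given as a description. The cells were mouse embryonic stem cells of the line REX-1 RFP, in which the promoter of Rex1 (Zfp42), a marker of the undifferentiated state, drives a red fluorescent protein. Every culture was first grown with LIF, a cytokine that keeps such cells undifferentiated, and was then kept for 72 h under its own condition. The ND library came from cells without LIF. The NS library came from cells with LIF and no sorbitol. The other 3 came from cells with LIF and 200, 250 or 300 mM sorbitol, a sugar alcohol that makes the medium hyperosmotic. The labels do not spell out the abbreviations NS and ND, and all cells were of the same line.

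Imprinted genes are expressed mainly from the copy inherited from the mother or mainly from the copy inherited from the father. The choice is carried by DNA methylation at imprinting control regions, laid down in the germ line and kept through early development by proteins such as ZFP57 and TRIM28. Many imprinted genes act on fetal and placental growth, and imprints in cultured embryonic stem cells are known to vary. In the mouse, H19 and the growth factor gene Igf2 lie next to each other and share a control region and enhancers. H19 is read from the maternal copy and Igf2 from the paternal copy. UMI counts do not separate the parental copies, so no imprint was measured.

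Each condition had 1 library, so there was no replicate error, no test was made, and each ratio compares libraries rather than conditions. All 95% intervals cover counting error only. A barcode was used if it had 500 or more detected genes and no more than 20% of mitochondrial UMIs. That was met by 9240 barcodes in ND, 10000 in NS and 9985, 10000 and 9849 at 200, 250 and 300 mM. The NS library was deeper, with a median of 2135 UMIs per barcode, against 827 in ND and 801 to 939 in the sorbitol libraries. Pairs of libraries shared between 34 and 54 barcode sequences of 10000. The 8 embryonic stem cell markers were detected in all libraries, and their summed level lay between 5442 and 9062 CPM (UMIs scaled to the library total). Dppa5a held most of that sum in every library, at 3653 CPM in ND and 4855 CPM in NS. In ND 2 of the 8, Klf4 and Tdgf1, were at least 1.5-fold lower than in NS and 0 were higher, beside 7.07% and 10% of all genes. Zfp42 stood at 524 CPM in ND, 562 CPM in NS and 521, 778 and 879 CPM at 200, 250 and 300 mM. The fibroblast markers, which would show feeder cells, included Col3a1 and Postn at 0 UMIs in every library. The sum of that list was 140 CPM in ND, 223 CPM in NS and 272, 355 and 400 CPM with sorbitol, and in each library most of it came from Sparc, which stem cells and endoderm also express.

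Several of the 10 genes host microRNAs, small RNAs that pair with target transcripts through the seed, their bases 2 to 8. UMI counts measure the host transcript and say nothing of the mature microRNA. The sequences below are shown for the hosts whose level differed most between the libraries, with coordinates on mm10 and sequences from RefSeq, 5′ to 3′, with the seed in capitals. H19 holds Mir675 in an exon (the 5p product at chr7:142577112-142577133 and the 3p product at chr7:142577078-142577099, minus strand). Igf2 holds Mir483 in an intron (5p at chr7:142654968-142654989 and 3p at chr7:142654932-142654952, minus strand). Mest holds Mir335 in an intron (5p at chr6:30741314-30741336 and 3p at chr6:30741354-30741375, plus strand), and Meg3 holds Mir770 in an exon (5p at chr12:109563710-109563731, plus strand).
miR-675-5p: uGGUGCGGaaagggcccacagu
miR-675-3p: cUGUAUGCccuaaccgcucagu
miR-483-5p: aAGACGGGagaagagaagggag
miR-483-3p: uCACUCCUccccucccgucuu
miR-335-5p: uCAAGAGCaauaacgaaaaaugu
miR-335-3p: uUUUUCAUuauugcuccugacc
miR-770-5p: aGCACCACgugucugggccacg
The seeds of these products all differ from one another, and none was shared with another microRNA lying in the 10 genes.

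Promoter windows from RefSeq (mm10, 250 bases before to 50 after a transcript start) were on hand for Igf2, Peg3, Mest, Rian, Meg3 and Grb10, and for some of these genes at several starts. H19, Peg10, Impact and Cdkn1c are named only. The windows shown were chosen because they held a searched motif, for genes whose level differed at least 1.5-fold between libraries, with the match in capitals. A further Mest window, at chr6:30737803-30738102, is nearly the same stretch with the same 2 matches and is not shown. The motifs were TGCCGC, the core bound by ZFP57 when methylated, TGGAAA, the core of sites of the osmotic stress factor NFAT5, and TATAAA, the TATA box. Both strands were searched, and on the opposite strand the ZFP57 core reads GCGGCA and the NFAT5 core TTTCCA. The windows lie at chr7:142661222-142661521 (Igf2, minus strand), chr7:6730370-6730669 (Peg3, minus strand), chr6:30737800-30738099 (Mest, plus strand) and chr12:109540746-109541045 (Meg3, plus strand).
Igf2 promoter: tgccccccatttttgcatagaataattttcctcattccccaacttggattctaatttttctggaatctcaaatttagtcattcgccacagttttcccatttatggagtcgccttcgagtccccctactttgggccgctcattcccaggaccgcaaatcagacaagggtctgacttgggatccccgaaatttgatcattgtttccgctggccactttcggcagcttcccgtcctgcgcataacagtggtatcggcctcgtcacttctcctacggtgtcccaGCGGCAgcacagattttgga
Peg3 promoter: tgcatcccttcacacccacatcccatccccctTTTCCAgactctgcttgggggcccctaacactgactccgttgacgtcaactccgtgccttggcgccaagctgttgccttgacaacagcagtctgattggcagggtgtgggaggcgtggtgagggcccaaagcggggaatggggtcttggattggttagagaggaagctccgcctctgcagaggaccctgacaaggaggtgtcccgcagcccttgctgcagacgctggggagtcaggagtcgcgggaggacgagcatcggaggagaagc
Mest promoter: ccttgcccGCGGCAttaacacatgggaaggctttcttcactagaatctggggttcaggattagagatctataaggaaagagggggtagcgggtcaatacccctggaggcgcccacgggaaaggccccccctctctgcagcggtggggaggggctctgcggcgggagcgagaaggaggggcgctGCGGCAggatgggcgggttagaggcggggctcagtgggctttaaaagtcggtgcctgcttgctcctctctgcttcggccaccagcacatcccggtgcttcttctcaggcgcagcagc
Meg3 promoter: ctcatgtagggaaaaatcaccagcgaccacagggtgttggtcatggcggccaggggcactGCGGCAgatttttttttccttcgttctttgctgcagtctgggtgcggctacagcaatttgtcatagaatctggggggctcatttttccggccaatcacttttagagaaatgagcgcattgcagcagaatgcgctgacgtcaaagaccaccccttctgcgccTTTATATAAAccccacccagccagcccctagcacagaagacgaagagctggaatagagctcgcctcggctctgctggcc
Over all 32851 promoter windows of this length, 11.6% held the ZFP57 core, 21.4% the NFAT5 core and 13.6% the TATA box. The Mest window held 2 ZFP57 cores, the Igf2 and Meg3 windows held 1 each, and the Meg3 window also held 2 TATA boxes on opposite strands that overlap. The Peg3 window held 1 NFAT5 core and no ZFP57 core. Of the Grb10 windows, not shown, 1 held a ZFP57 core as well. The number of CpG dinucleotides was 14 in the Igf2 window, 13 in the Peg3 and Meg3 windows and 17 in the Mest window, against a median of 7 over all windows. These windows were picked for motifs, and the ZFP57 core itself holds a CpG, so the numbers do not describe the genes' promoters in general. The 3 other Igf2 windows held 2, 24 and 7 CpG and none of the motifs, another Meg3 window held 1, another Mest window 8 and the Rian window 0, also without a motif. A match of letters is not a measured binding site.

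H19, a long non-coding RNA (ENSMUSG00000000031, chr7:142575529-142578143, minus strand), stood at 169 CPM in ND (95% interval 160 to 179), at 139 CPM in NS (134 to 144), and at 943 CPM (923 to 963), 794 CPM (777 to 812) and 932 CPM (911 to 953) at 200, 250 and 300 mM sorbitol. The 3 sorbitol libraries stood far above both libraries without sorbitol. In UMIs these were 1338 in ND, 3079 in NS and 8691, 7757 and 7729 with sorbitol, although the NS library held more than double the UMIs of any other. H19 was 6.79-fold higher than in NS at 200 mM, 5.72-fold at 250 mM and 6.71-fold at 300 mM, and 1.22-fold higher in ND than in NS. The levels at 200 and 300 mM lay within counting error of each other, and the level at 250 mM was lower than both, so H19 did not follow the dose. At 300 mM it was 5.51-fold higher than in ND.

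Igf2, a fetal growth factor related to insulin (ENSMUSG00000048583, chr7:142650766-142666816, minus strand), was scarce throughout. It had 4 UMIs in ND, 27 in NS and 104, 150 and 129 at 200, 250 and 300 mM, which is 0.506 CPM in ND, 1.22 CPM in NS and 11.3, 15.4 and 15.6 CPM with sorbitol. The level at 200 mM was lower than at 250 mM, and the levels at 250 and 300 mM lay within counting error. Against NS, Igf2 was 9.26-fold higher at 200 mM (log2 ratio 3.21, interval 2.59 to 3.88), 12.6-fold at 250 mM (3.66, 3.06 to 4.30) and 12.8-fold at 300 mM (3.67, 3.07 to 4.33). The ratio of ND to NS rested on 4 UMIs and its interval held 0 on the log2 scale (log2 −1.27, −3.24 to 0.25). At 300 mM Igf2 was 30.7-fold higher than in ND, with an interval of 3.55 to 6.84 on the log2 scale. Igf2 overlaps the antisense gene Igf2os in exons, and since use of strand in the counting is not stated, the genes could share reads. Igf2os itself held at most 3 UMIs in any library.

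**Figure D1:**
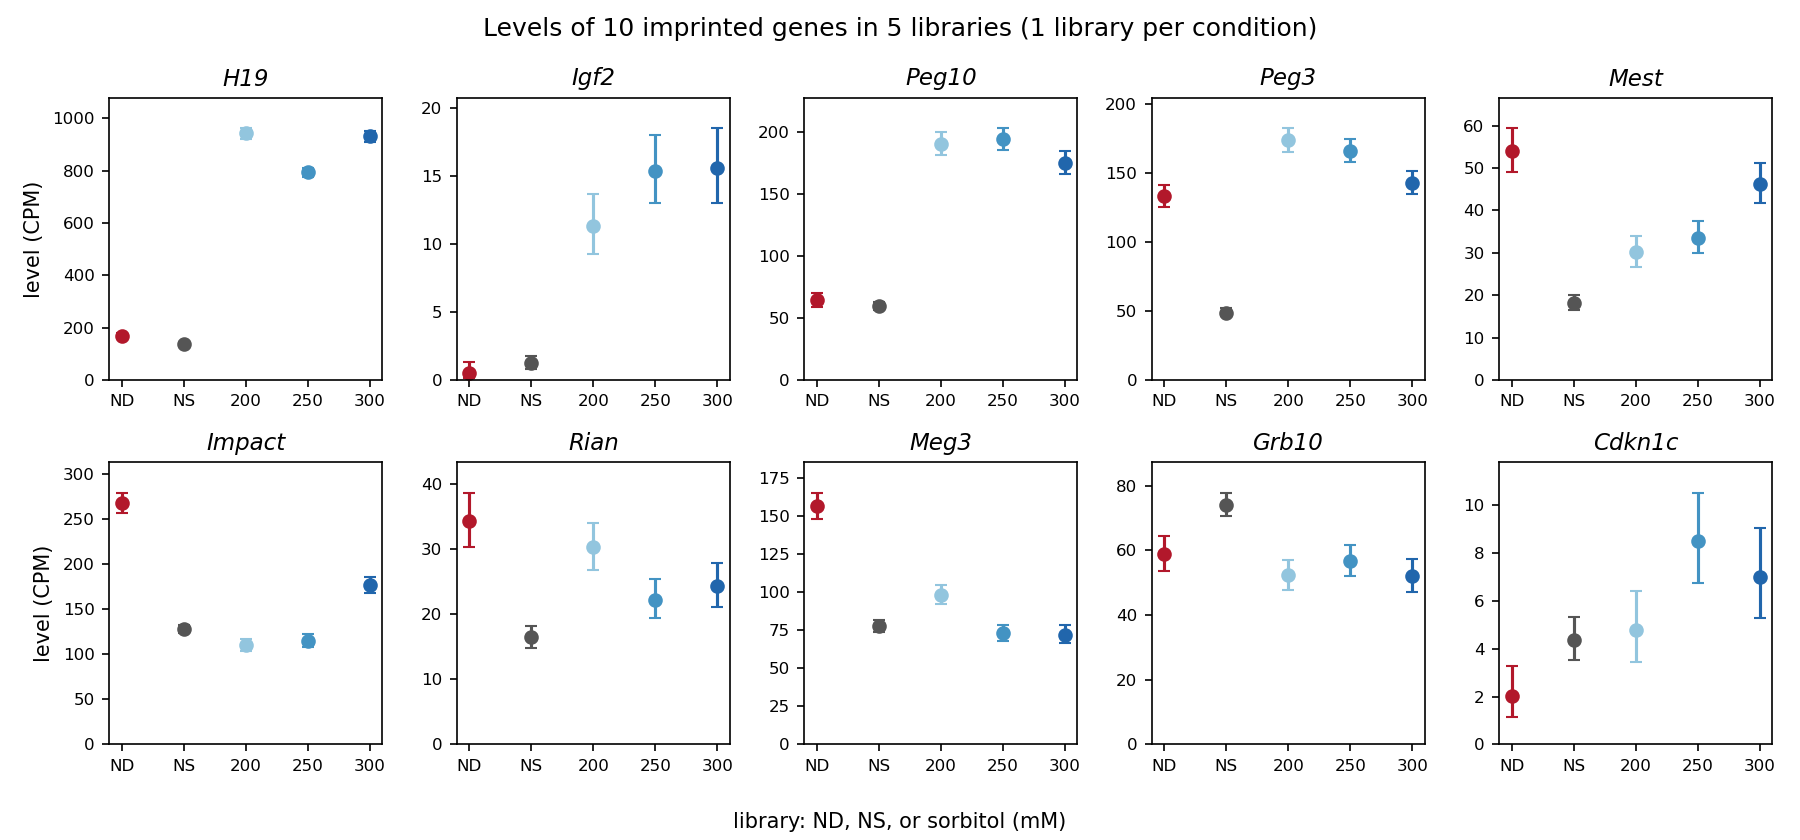
Level of each gene in CPM (linear axis from 0) in the ND, NS and 200, 250 and 300 mM sorbitol libraries, with points for 1 library each and bars for exact Poisson 95% intervals. H19, Igf2 and Peg10 stand high in the 3 sorbitol libraries, with H19 at 794 to 943 CPM there, while Impact and Meg3 stand highest in ND, at 267 and 156 CPM.

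Of the other paternally expressed genes, Peg10, Peg3 and Mest were at least 1.5-fold higher than in NS in all 3 sorbitol libraries. Peg10, a gene derived from a retrotransposon that the mouse placenta needs, stood at 64.1 CPM in ND, 59.5 CPM in NS and 190, 194 and 175 CPM at 200, 250 and 300 mM. ND and NS lay within counting error, and the sorbitol libraries were 3.20-, 3.26- and 2.95-fold above NS. Peg3, which encodes a zinc finger protein, stood at 133 CPM in ND, 48.9 CPM in NS and 174, 166 and 143 CPM with sorbitol. NS alone stood low for Peg3, as ND was 2.72-fold above NS and the sorbitol libraries 3.56-, 3.40- and 2.92-fold. Peg3 at 300 mM and in ND lay within counting error of each other. Mest, a predicted hydrolase first known from mesoderm, stood at 54.0 CPM in ND, 18.2 CPM in NS and 30.2, 33.6 and 46.3 CPM at 200, 250 and 300 mM. Its level was lowest in NS and highest in ND. The sorbitol libraries were 1.65-, 1.84- and 2.54-fold above NS, highest at 300 mM. Mest overlaps exons of Copg2 on the other strand, so its counts are uncertain to that extent. Impact, which restrains the stress kinase GCN2, stood at 267 CPM in ND, 128 CPM in NS and 110, 115 and 177 CPM with sorbitol. It was 2.09-fold higher in ND than in NS. At 200 and 250 mM it was slightly below NS (log2 −0.22 and −0.15), and at 300 mM it was 1.38-fold above it.

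Of the maternally expressed genes, the long non-coding RNAs Meg3 and Rian lie 32.2 kb apart on chromosome 12 and were both highest in ND. Meg3 stood at 156 CPM in ND, 77.8 CPM in NS and 98.4, 73.0 and 72.2 CPM at 200, 250 and 300 mM. It was 2.01-fold higher in ND than in NS, and at 250 and 300 mM it lay within counting error of NS. Rian stood at 34.3 CPM in ND, 16.4 CPM in NS and 30.3, 22.2 and 24.2 CPM with sorbitol. Rian was 2.09-fold higher in ND than in NS and 1.84-fold higher at 200 mM, where it lay within counting error of ND. Mirg, another long non-coding RNA of that cluster, was 1.84-fold higher in ND, at 9.61 CPM against 5.23 CPM in NS. Its log2 ratios to NS lay between −0.31 and 0.13 with sorbitol. B830012L14Rik, a long non-coding RNA gene between Rian and Mirg, had log2 ratios to NS of 0.72 in ND and 0.75, 0.62 and 0.40 with sorbitol. Grb10, an adaptor that dampens insulin and IGF receptor signalling and is maternally expressed in most mouse tissues, was highest in NS. It stood at 58.8 CPM in ND, 74.2 CPM in NS and 52.3, 56.7 and 52.1 CPM with sorbitol, all 4 below NS by less than 1.5-fold. Cdkn1c encodes the cell cycle inhibitor p57. It had 16 UMIs in ND, 97 in NS and 44, 83 and 58 at 200, 250 and 300 mM, which is 2.02 CPM in ND, 4.38 CPM in NS and 4.77, 8.50 and 6.99 CPM with sorbitol. The 200 mM library lay within counting error of NS, and Cdkn1c was 1.94-fold above NS at 250 mM and 1.60-fold at 300 mM.

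A gene was counted as higher or lower in a comparison when it reached 5 CPM in either library and its CPM differed at least 1.5-fold. The 4 comparisons with NS share that library. In ND, 5 of the 8 genes that reached 5 CPM were higher than in NS (Peg3, Mest, Impact, Rian and Meg3) and none was lower, where 10% of 10210 genes were higher and 7.07% lower. At 200 mM, 6 of 9 were higher than in NS (H19, Igf2, Peg10, Peg3, Mest and Rian) and none lower, where 26.8% of 10696 genes were higher and 11% lower. At 250 mM, 6 of 10 were higher (H19, Igf2, Peg10, Peg3, Mest and Cdkn1c), beside 26.5% of genes higher and 8.69% lower. At 300 mM the same 6 genes as at 250 mM were higher and none was lower, beside 32.8% of genes higher and 10.6% lower. Since the genes were selected on these values, the counts are read only as a summary. The median log2 ratio of the measured genes was 1.03 in ND over NS and 0.88, 0.92 and 1.01 at 200, 250 and 300 mM over NS. Over all genes tested it was 0.08 in ND over NS and 0.20, 0.23 and 0.29 in the sorbitol libraries over NS. Scaling by the median of ratios in place of totals lowered every ratio to NS by 0.22, 0.24 and 0.26 at the 3 doses. The share of called genes that were higher then moved to 48.4%, 49.4% and 51.8% at 200, 250 and 300 mM over NS, against 70.8%, 75.3% and 75.6% with totals. With that scaling Mest at 200 mM (log2 0.51) and Cdkn1c at 300 mM (log2 0.42) were no longer at least 1.5-fold higher than NS. The other genes counted as higher with totals stayed so, and Grb10 became at least 1.5-fold lower at each dose (log2 −0.72, −0.62 and −0.77). The share of all genes past 1.5-fold was not computed for that scaling, so no count of the 10 genes is given.

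Between doses the genes moved little. From 200 to 250 mM, Cdkn1c was higher (1.78-fold, on 83 and 44 UMIs) and none was lower, beside 3.57% of genes higher and 3.42% lower. From 250 to 300 mM, Impact was higher (1.54-fold) and none was lower, beside 3.51% of genes higher and 2.18% lower. At 300 mM against ND, H19, Igf2, Peg10 and Cdkn1c were higher and Impact (1.51-fold) and Meg3 (2.17-fold) were lower, beside 27.9% of genes higher and 11.4% lower. Peg3, Mest, Rian and Grb10 stayed within 1.5-fold between 300 mM and ND.

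**Figure D2:**
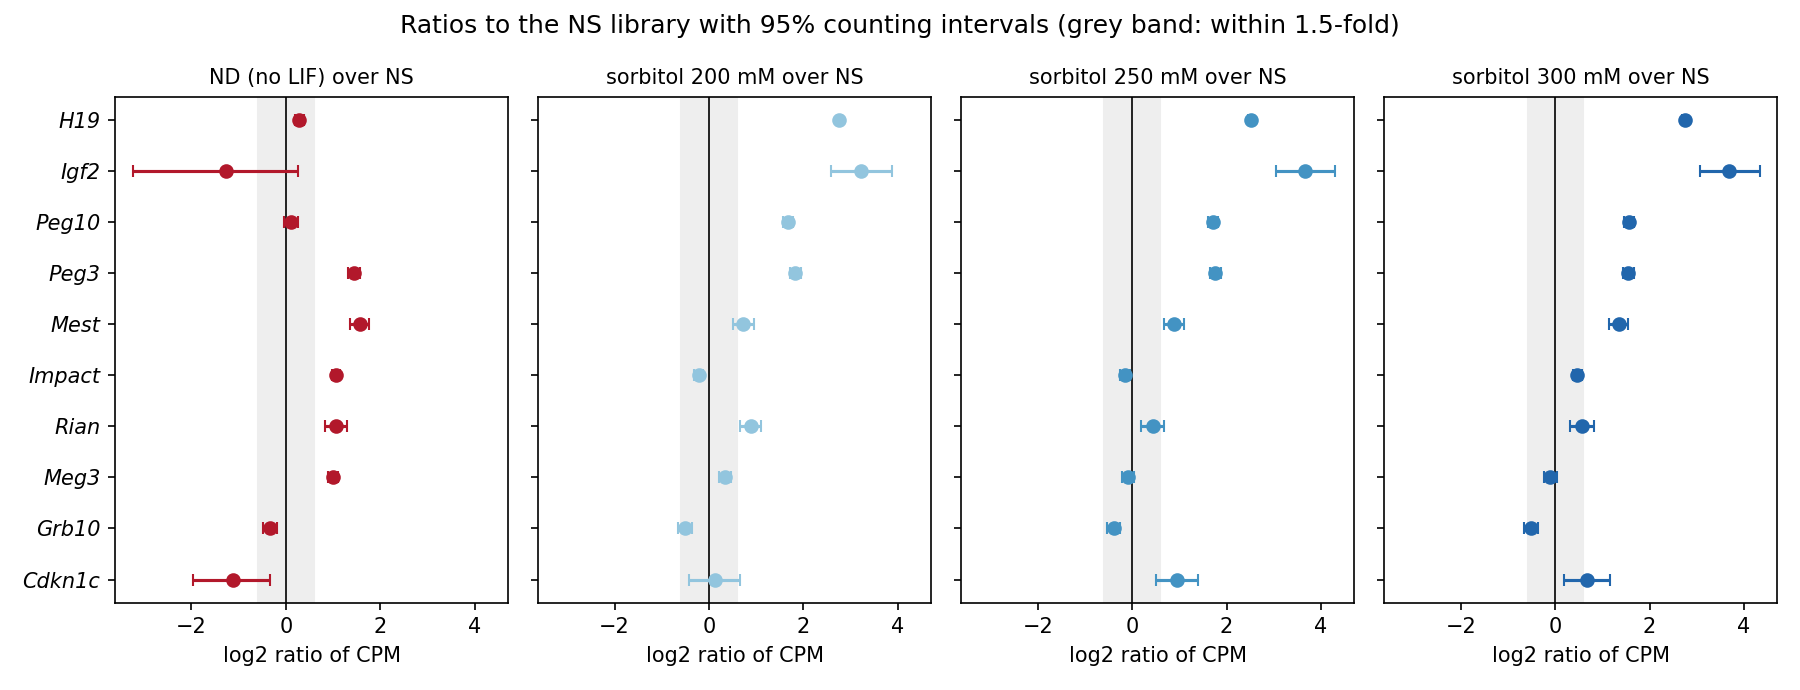
Log2 ratio of CPM of each gene in ND and in sorbitol 200, 250 and 300 mM over NS, with exact 95% counting intervals (bars) and a grey band for differences under 1.5-fold. Igf2, H19, Peg10, Peg3 and Mest lie right of the band at all 3 doses (Igf2 3.21 to 3.67, Mest 0.73 to 1.34). ND lies right of it for Peg3, Mest, Impact, Rian and Meg3.

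The genes around H19 and Igf2 did not all move with them. H19 and Igf2 lie 72.6 kb apart. Tnnt3, a fast skeletal muscle troponin gene 59.5 kb on the other side of H19, stood at 2.53 CPM in ND, 1.85 CPM in NS and 13.7, 16.3 and 12.8 CPM with sorbitol, a log2 ratio to NS of 2.89, 3.14 and 2.79. Mrpl23, a mitochondrial ribosomal protein gene that lies between Tnnt3 and H19, stood at 157 CPM in ND, 148 CPM in NS and 116, 123 and 107 CPM with sorbitol. Ctsd, the cathepsin D gene 187 kb from H19, differed from NS by a log2 ratio of 0.13 to 0.24 with sorbitol. Ins2, the insulin gene next to Igf2, had under 1 CPM in every library. Of the 4 genes within 200 kb of H19 that reached 5 CPM in any library, Igf2 and Tnnt3 were thus higher with sorbitol and Mrpl23 and Ctsd stayed within 1.5-fold of NS.

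**Figure D3:**
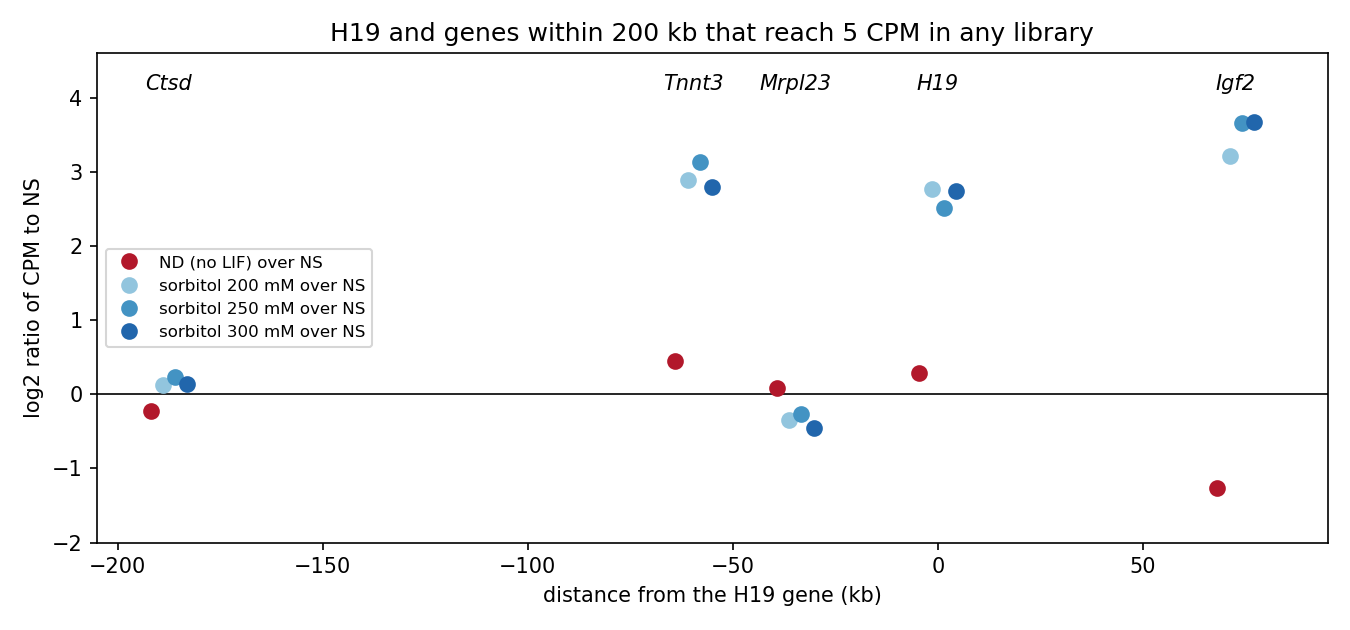
Log2 ratio of CPM to NS for H19 and the 4 genes within 200 kb that reached 5 CPM in any library, placed by distance from H19 in kb (points of one gene are spread sideways for legibility). H19, Igf2 and Tnnt3 lie between 2.51 and 3.67 in the 3 sorbitol libraries, while Mrpl23 lies between −0.46 and −0.26 there.

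Neighbours of the other genes varied as well. Usp29, which lies 147 bases from Peg3 on the other strand and is paternally expressed like it, stood at 4.43 CPM in ND, 1.99 CPM in NS and 4.45, 6.25 and 5.79 CPM with sorbitol. Like Peg3, Usp29 was lowest in NS, although it reached 5 CPM only at 250 and 300 mM. Sgce, which lies 99 bases from Peg10 on the other strand and is also paternally expressed, differed from NS by a log2 ratio of only 0.30 to 0.38 with sorbitol, where Peg10 differed by 1.56 to 1.71. Phlda2, a maternally expressed gene that restrains placental growth and lies 40.5 kb from Cdkn1c, was highest in NS, at 9.87 CPM in ND, 18.9 CPM in NS and 7.38, 13.5 and 8.32 CPM with sorbitol. Kcnq1ot1, the antisense RNA of the same domain, stood at 351 CPM in ND, 324 CPM in NS and 325, 493 and 418 CPM with sorbitol.

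H19 UMIs were concentrated in some barcodes. For these values each barcode was thinned to 500 UMIs, so that depth was equal. H19 was detected in 7.0% of barcodes in ND (exact binomial 95% interval 6.49 to 7.54), 5.77% in NS (5.32 to 6.25), 26.3% at 200 mM (25.4 to 27.2), 20.2% at 250 mM (19.4 to 21) and 25.3% at 300 mM (24.4 to 26.2). Without thinning the shares were 11% in ND, 18.1% in NS and 37.1%, 29.2% and 33.6% with sorbitol. No cell type known to lack H19 was identified, so the share that free RNA would give was not measured. If every barcode of a library shared a single expression profile, the share would have been 8.05% in ND, 6.74% in NS and 37.2%, 32.7% and 37.6% at 200, 250 and 300 mM. The observed shares were lower, and barcodes with H19 held more of it, 1.20 UMIs on average in ND, 1.21 in NS and 1.77, 1.96 and 1.86 with sorbitol. At least 5 H19 UMIs were found in 1 barcode in ND, 2 in NS and 134, 154 and 170 barcodes with sorbitol, where a single profile would have given 1.22, 0.575 and 1.28 barcodes in the sorbitol libraries. The richest barcode held 6 H19 UMIs in ND, 6 in NS and 14, 15 and 13 with sorbitol. The 10% of barcodes with most H19 carried 65.0%, 74.3% and 67.5% of its UMIs at 200, 250 and 300 mM, against 41.5%, 42.7% and 41.4% under a single profile.

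**Figure D4:**
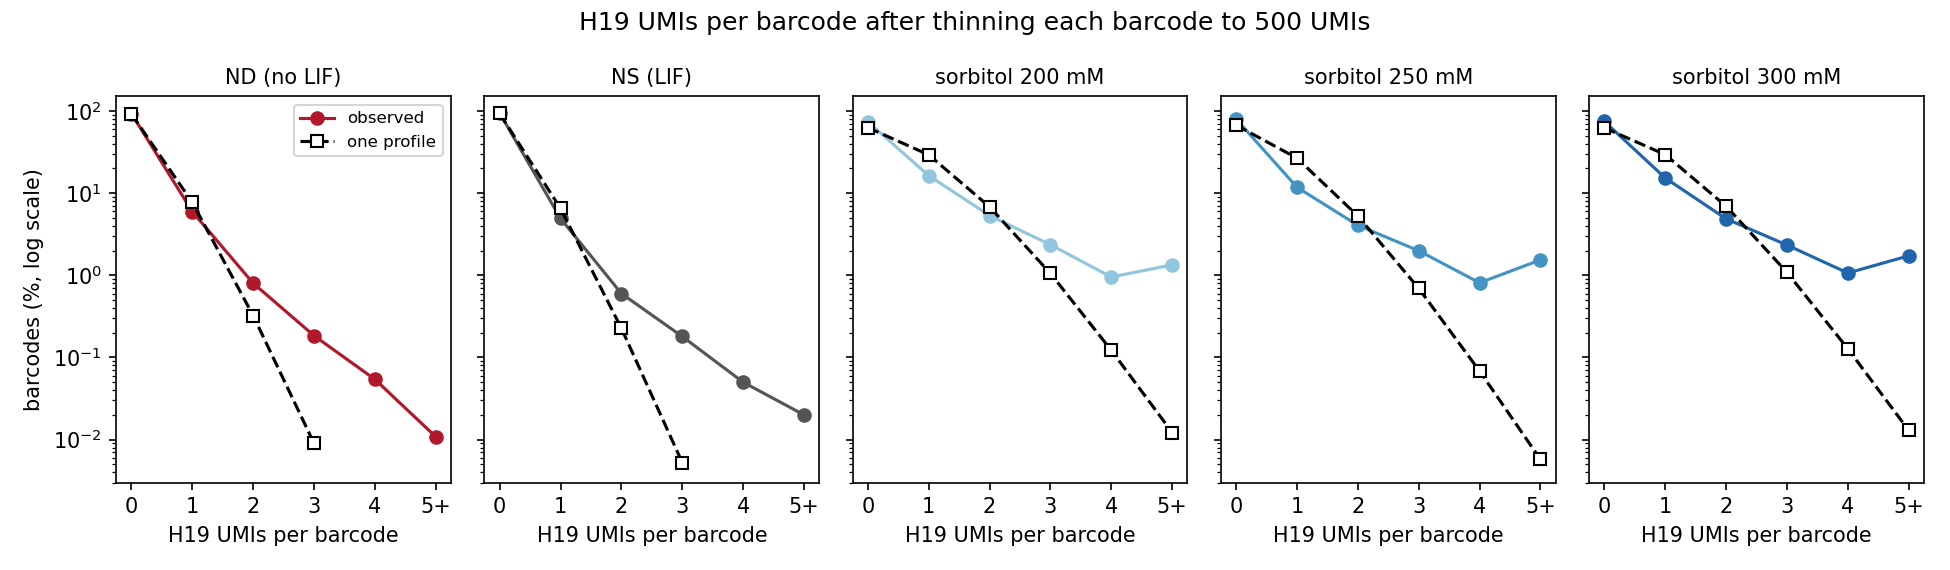
Share of barcodes (percent, log axis) with 0, 1, 2, 3, 4 or at least 5 H19 UMIs after thinning to 500 UMIs, observed (filled points) and under a single profile per library (open squares, left out below 0.003%). In the sorbitol libraries 1.34% to 1.73% of barcodes held at least 5 H19 UMIs, above the single-profile line at 3 or more UMIs, and more barcodes than under that line held none.

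The variance of H19 over barcodes, relative to a single profile, was 1.36 in ND, 1.43 in NS and 2.43, 3.06 and 2.63 with sorbitol. This measure rises with the mean when relative unevenness is the same. Mean H19 UMIs per thinned barcode were 0.0839 in ND, 0.0698 in NS and 0.466, 0.396 and 0.472 with sorbitol. The values thus do not show that H19 was more unevenly spread with sorbitol than without. In each of the 5 libraries the relative variance of H19 was the highest among genes of like mean. These numbered 454 in ND, 498 in NS and 49, 56 and 60 with sorbitol, and their median relative variance lay between 1.0 and 1.01. Peg10 had a relative variance of 1.07, 1.16 and 1.07 at 200, 250 and 300 mM, which ranked it 2 of 339, 2 of 384 and 1 of 450 genes of like mean. Igf2 reached 1.07, 1.26 and 1.14 and ranked 8, 5 and 5 of 1334, 1400 and 1412, on 49, 62 and 76 barcodes with an Igf2 UMI. Meg3 had a relative variance of 1.05 in ND and 1.09 in NS, rank 9 of 506 and 6 of 782, and ranked 337 of 758, 23 of 1026 and 256 of 1073 with sorbitol. For Impact, Rian, Grb10 and Cdkn1c the value lay between 0.97 and 1.02 in every library. No barcode held more than 1 Cdkn1c UMI in any library, or more than 1 Rian UMI at 250 and 300 mM. With counts of only 0 and 1 the value lies near 1 by construction, so it cannot show how these 2 genes were spread there. Peg3 lay between 1.0 and 1.03. Mest lay between 0.99 and 1.02 except at 250 mM, where it was 1.06.

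In the sorbitol libraries Igf2, Cdkn1c and Peg10 were found more often in barcodes with an H19 UMI than in barcodes without. Barcodes of a library are not replicates of a condition, and the intervals cover counting error only. Igf2 was found in 1.07%, 1.93% and 1.73% of barcodes with H19 at 200, 250 and 300 mM, against 0.285%, 0.288% and 0.449% of barcodes without H19. The intervals did not meet at any dose, and the odds ratios were 3.76, 6.82 and 3.90. Igf2 ranked 1 of 1299, 1 of 1348 and 3 of 1387 among genes detected in a like share of barcodes, whose median odds ratio lay near 1 (1.02 to 1.04). In ND 0 of 647 and in NS 0 of 577 barcodes with H19 held an Igf2 UMI, which at this depth leaves shares up to 0.569% and 0.637% within the interval. Cdkn1c was found in 0.381%, 0.842% and 0.762% of barcodes with H19 and in 0.149%, 0.163% and 0.231% of barcodes without. These rest on 10, 17 and 19 barcodes with H19, and the intervals were apart at 250 and 300 mM only. Peg10 was found in 11%, 14.3% and 12% of barcodes with H19, against 7.91%, 7.28% and 6.84% without, and ranked first among 383, 440 and 499 genes of like detection. Peg10 was also more frequent with H19 in NS (5.20% against 2.65%, intervals apart), and in ND the shares were 3.55% and 2.90%, with intervals that met.

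Peg3 was found in 9.61% of barcodes with H19 and 7.28% of barcodes without at 250 mM, with intervals apart, and its odds ratios at 200 and 300 mM were 1.13 and 1.16 with intervals that met, as they did in ND and NS. For Mest, Impact, Rian, Meg3 and Grb10 the intervals met in every library, with odds ratios between 0.65 and 1.48. Over all genes detected in at least 1% of barcodes the median odds ratio with H19 lay between 0.989 and 0.999. Meg3 and Rian were also set against each other, and Rian was found in 3.24% of barcodes with Meg3 and in 1.64% of barcodes without in ND, with intervals apart, while in NS and with sorbitol the intervals met. Igf2 and Peg10 shared barcodes at 250 mM, where 23 of 62 barcodes with Igf2 held Peg10 (37.1%, against 8.52% of barcodes without Igf2). At 300 mM these were 12 of 76 (15.8% against 8.07%) and at 200 mM 5 of 49 (10.2% against 8.71%), with intervals that met at both doses.

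**Figure D5:**
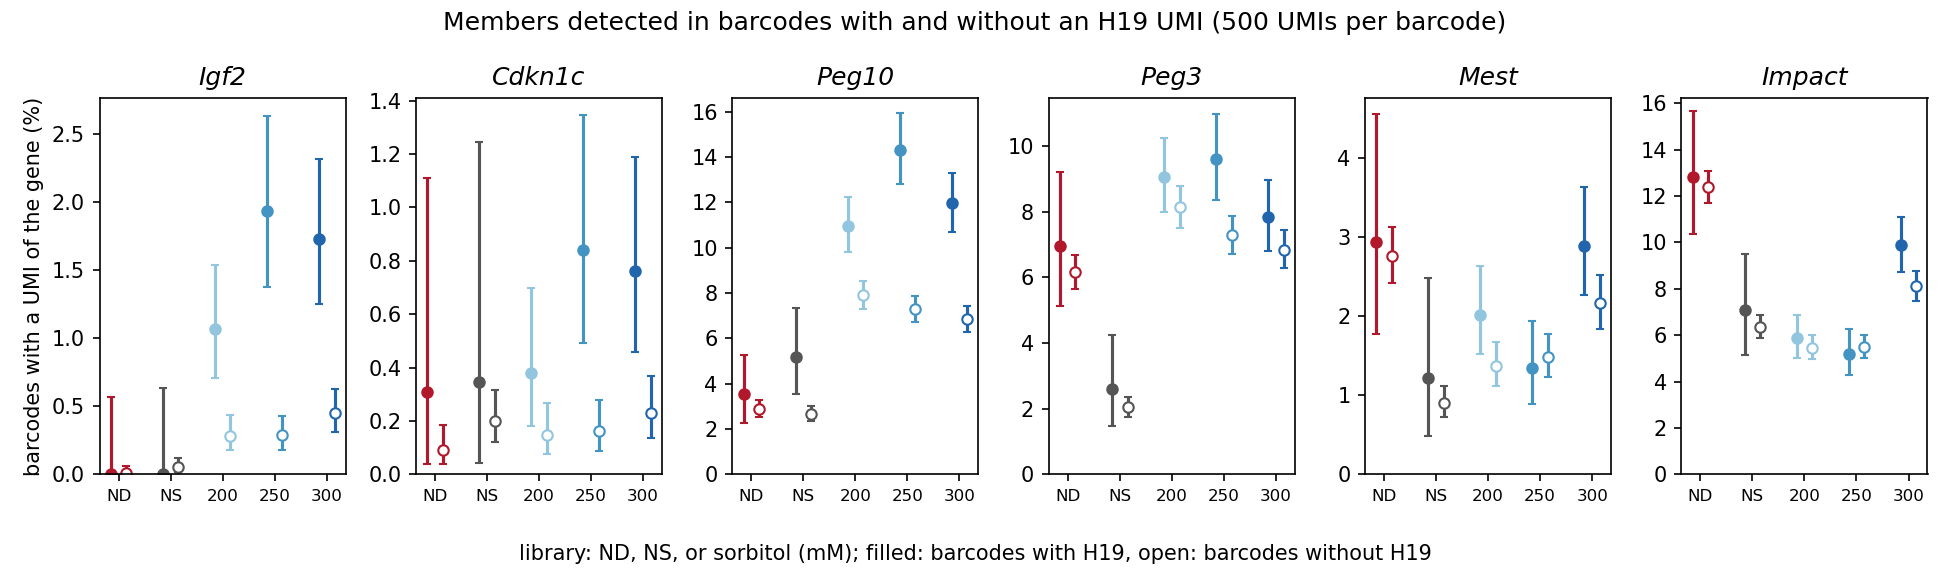
Percent of barcodes with a UMI of each of 6 genes among barcodes with (filled) and without (open) an H19 UMI in the ND, NS and 200, 250 and 300 mM sorbitol libraries, after thinning to 500 UMIs, with exact binomial 95% intervals. Igf2 and Peg10 stand apart at all 3 doses (Peg10 11%, 14.3% and 12% with H19), whereas the intervals of Mest and Impact meet in every library.

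Barcodes rich in H19, with at least 2 H19 UMIs after thinning, numbered 97 in ND, 85 in NS and 996, 840 and 985 at 200, 250 and 300 mM. They were no deeper than barcodes with no H19, with median unthinned depths of 889, 938 and 804 UMIs, against 887, 938 and 802 UMIs in the 3 sorbitol libraries. Their median mitochondrial share was 5.53%, 5.61% and 5.84%, against 5.59%, 5.73% and 6.10%. Doublets were not called. For the levels below, H19 was left out of the totals.

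Of 2883 genes that reached 50 CPM in either class at each dose, 17 (0.59%) were at least 1.5-fold higher in H19-rich barcodes than in H19-free barcodes at all 3 doses, and 0 (0%) were lower. Of the 5 of the imprinted genes described here that reached that level, Peg10 was higher and none was lower. The 10 genes that stood out most were Krt8, Hand1, Rhox6, Rhox9, Ahnak, Rnf128, Csrp1, Dusp9, Lgals1 and Peg10. Krt8, Hand1, Rhox6, Rhox9, Ahnak and Csrp1 were under 50 CPM in H19-free barcodes at each dose, and Rnf128 was at 250 mM. They met the minimum there only through the H19-rich class, so a higher level in it was a condition of entry. The number of genes that were higher is thus only a description. Krt8, a keratin of simple epithelia, stood at 64.6, 268 and 141 CPM in H19-rich barcodes at 200, 250 and 300 mM, against 12.8, 12 and 16.3 CPM in H19-free barcodes. Hand1, a transcription factor of trophoblast and mesoderm, stood at 184, 127 and 172 CPM, against 43.5, 31.8 and 38.3 CPM. The homeobox gene Rhox6, which is active in the placenta, stood at 147, 345 and 163 CPM, against 41.0, 45.1 and 43.5 CPM, and its neighbour Rhox9 differed likewise (log2 1.78 to 2.53). Peg10 stood at 295, 606 and 358 CPM in H19-rich barcodes, against 169, 155 and 143 CPM. The genes lowest in H19-rich barcodes were Tdh, the threonine dehydrogenase of mouse embryonic stem cells, Dcp2, Slc25a36, Stmn2 and Slc7a3. Tdh stood at 62.6, 95.9 and 131 CPM, against 116, 152 and 182 CPM, and each of the other 4 had a log2 ratio between −0.75 and −0.40 at the 3 doses. Their intervals held 0 on the log2 scale for Dcp2 at 200 and 250 mM and for Slc25a36 at 250 and 300 mM. They also held 0 for Stmn2 at 200 and 300 mM and for Slc7a3 at 200 mM.

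Igf2 stood at 28.3, 57.5 and 67.4 CPM in H19-rich barcodes at 200, 250 and 300 mM, against 5.98, 6.77 and 9.79 CPM in H19-free barcodes, on 14, 24 and 33 UMIs in the rich class. Cdkn1c stood at 12.1, 33.6 and 24.5 CPM, against 2.99, 3.26 and 4.62 CPM, on 6, 14 and 12 UMIs. Tnnt3, the neighbour of H19, stood at 50.5, 69.5 and 28.6 CPM, against 10.6, 7.02 and 8.70 CPM. Peg3 was slightly higher in H19-rich barcodes (log2 0.30, 0.48 and 0.40), with an interval that held 0 at 200 mM. Mest had log2 ratios of 0.70, 0.43 and 0.71, and only at 300 mM did the interval leave out 0 (0.14 to 1.24). Impact had log2 ratios of 0.33, −0.08 and 0.45, again with an interval clear of 0 only at 300 mM (0.15 to 0.74). Rian (log2 0.57, 0.45 and 0.04), Meg3 and Grb10 (both between −0.19 and 0.26) had intervals that held 0 at each dose.

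The summed trophoblast marker list of 12 genes was higher in H19-rich than in H19-free barcodes in all 5 libraries, on few UMIs in ND and NS. In ND its summed level was 331 CPM in H19-rich barcodes, against 160 CPM in H19-free barcodes (log2 1.05, interval 0.23 to 1.76). In NS it was 757 CPM, against 141 CPM (log2 2.42, 1.86 to 2.93), an interval that held the ratio at 250 mM. The NS value rested on 32 UMIs in the rich class, 17 of them from Krt8, and 6 of the 12 genes had 0 UMIs there. The ND value rested on 16 UMIs in the rich class, 6 of them from Tfap2c and 5 from Krt8. There too 6 of the 12 genes had 0 UMIs. The summed level was 402, 772 and 576 CPM in H19-rich barcodes at 200, 250 and 300 mM, against 158, 158 and 179 CPM in H19-free barcodes (log2 1.35, 2.29 and 1.69). Krt8, Hand1, Tfap2c and, at 250 and 300 mM, Krt18 held most of this, and Krt18 stood at 18.2, 156 and 85.8 CPM, against 5.98, 9.02 and 9.51 CPM. Tfap2c, a transcription factor that stem cells also express, differed little (log2 0.12 to 0.30). Of the defining markers, Tpbpa and Prl3d1 had 0 UMIs in both classes, and Elf5 had 0, 0 and 2 UMIs in H19-rich barcodes, against 1, 8 and 2 UMIs in H19-free barcodes. Cdx2 had 2, 4 and 1 UMIs in H19-rich barcodes and 0 UMIs at each dose in H19-free barcodes, although that class held many more UMIs in all. Krt7 and Ascl2, a transcription factor of the placenta, were higher in H19-rich barcodes at each dose (log2 1.67, 3.56 and 3.13 for Krt7 and 1.65, 3.43 and 2.59 for Ascl2). Gata3 had 1, 8 and 6 UMIs in H19-rich barcodes, against 4, 6 and 8 UMIs in H19-free barcodes. Plac1 had 2, 6 and 3 UMIs in H19-rich barcodes, against 1, 3 and 1 UMIs in H19-free barcodes. Summed over whole libraries the list stood at 169 CPM in ND, 151 CPM in NS and 189, 226 and 232 CPM with sorbitol. Barcodes with no UMI of the list, an alternative chosen after seeing the data, numbered 8028 in ND, 7339 in NS and 8486, 8325 and 8274 at 200, 250 and 300 mM. They were chosen on unthinned counts, so more barcodes were left out in the deeper NS library, and Tfap2c is also expressed by stem cells. In them the log2 ratio of H19 to NS was 0.57 in ND and 2.95, 2.39 and 2.82 with sorbitol, against 0.28 in ND and 2.76, 2.51 and 2.75 with sorbitol in all kept barcodes. Since the choice falls unequally on NS, these values do not show what the marked barcodes contribute. In the same barcodes the log2 ratio of Cdkn1c at 250 mM over NS was −0.02, against 0.96 in all kept barcodes.

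The embryonic stem cell list was slightly lower in H19-rich barcodes, at 7358, 7243 and 7365 CPM, against 8514, 9293 and 8499 CPM in H19-free barcodes. Its marker Zfp42 stood at 408, 549 and 738 CPM in H19-rich barcodes, against 549, 814 and 906 CPM. Dppa5a held most of the stem cell list in both classes, at 5311, 5072 and 4915 CPM, against 6074, 6416 and 5517 CPM. The primitive streak and mesoderm list of 9 genes stood at 206, 165 and 202 CPM, against 66.9, 62.9 and 74.5 CPM. Hand1, which is on this list as well as on the trophoblast list, held most of it, and the streak gene T had 0 UMIs in H19-rich barcodes at each dose. The fibroblast list did not differ beyond counting error, at 251, 307 and 411 CPM, against 278, 360 and 390 CPM. The primitive and extraembryonic endoderm list stood at 309, 412 and 384 CPM in H19-rich barcodes, against 258, 350 and 282 CPM in H19-free barcodes, and its interval held 0 on the log2 scale at 250 mM. Of its most abundant members, the basement membrane collagen gene Col4a1 was higher in H19-rich barcodes (log2 0.77, 0.99 and 1.30), while the intervals of Apoe held 0 at each dose. For the neuroectoderm list the intervals of the ratio held 0 on the log2 scale at 200 and 250 mM and not at 300 mM (log2 0.58), and for the definitive endoderm and cleavage-stage-like lists they held 0 at all 3 doses. The part of other cell types in the H19 values was not tested. In bulk sums, more cells with a transcript and more transcript per cell cannot be told apart.

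Of 70 other imprinted genes, 68 were found by symbol, and 33 reached 5 CPM in the 300 mM or the NS library. At 300 mM, 9 of these were higher than in NS and 4 lower, with a median log2 ratio of 0.23, against 0.29 over all genes tested, of which 32.8% were higher and 10.6% lower. The list as a whole thus stood no higher than genes at large. Sfmbt2, a paternally expressed Polycomb-group gene, stood at 156 CPM at 300 mM, against 43.3 CPM in NS. Igf2r, the maternally expressed receptor that removes IGF2, stood at 63.4 CPM at 300 mM, against 23.2 CPM in NS. Slc38a4, a paternally expressed amino acid transporter gene, stood at 173 CPM at 300 mM, against 71.5 CPM in NS. Mcts2 was lower, at 13.7 CPM at 300 mM, against 39.3 CPM in NS, and since it is a retrogene copy of Mcts1 its counts are uncertain. At 200 mM 8 of 35 were higher and 5 lower, beside 26.8% and 11% of all genes, and at 250 mM 7 of 34 were higher and 3 lower, beside 26.5% and 8.69%. In ND only Mirg and Snrpn were higher and Phlda2 lower than in NS, of 32 measured, beside 10% of all genes higher and 7.07% lower. Snrpn, a paternally expressed splicing protein gene, stood at 121 CPM in ND, against 79.7 CPM in NS.

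Of 25 genes that regulate imprints or DNA methylation, the methylcytosine oxidases Tet1, Tet2 and Tet3 included, 24 reached 5 CPM in each comparison. In ND 4 were higher and 1 lower than in NS, beside 10% of all genes higher and 7.07% lower. At 200 mM 6 were higher and 1 lower, which is near the 26.8% higher and 11% lower of all genes. At 250 mM 10 were higher and none lower, beside 26.5% and 8.69%, and at 300 mM 13 were higher and none lower, beside 32.8% and 10.6%. The median log2 ratio of these genes was 0.25 in ND over NS and 0.27, 0.49 and 0.61 at 200, 250 and 300 mM over NS, against 0.08 in ND and 0.20, 0.23 and 0.29 over all genes. Median-of-ratios scaling takes 0.22, 0.24 and 0.26 off these ratios at the 3 doses as well. Dnmt3b, a DNA methyltransferase that lays down new methylation, stood at 101 CPM in ND, 41.3 CPM in NS and 89.1, 91.0 and 124 CPM with sorbitol. Zfp57, whose protein guards imprints against loss of methylation, stood at 31.6 CPM in ND, 42.6 CPM in NS and 58.8, 89.6 and 85.0 CPM with sorbitol. Trim28, the partner of ZFP57, stood at 646 CPM in ND, 522 CPM in NS and 799, 1072 and 1023 CPM with sorbitol. The chromatin remodeller Atrx, the methyltransferase cofactor Dnmt3l and the methylcytosine oxidase Tet2 were the others named by the largest ratios at 300 mM, with log2 ratios to NS of 0.99, 0.98 and 0.95. Tet2 was lower in ND (log2 −1.07), and Dppa3, which protects maternal methylation in the egg, was higher there (136 CPM in ND, against 58.5 CPM in NS).

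Of 30 genes of the insulin-like growth factor pathway, 20 reached 5 CPM at 300 mM or in NS, and 10 were higher and 3 lower at 300 mM, beside 32.8% of all genes higher and 10.6% lower. The receptor gene Igf1r stood at 19.5 CPM in ND, 9.75 CPM in NS and 23.2, 17.1 and 23.0 CPM with sorbitol. The insulin receptor gene Insr stood at 8.60 CPM in ND, 7.27 CPM in NS and 14.4, 9.32 and 15.9 CPM with sorbitol. Foxo3, a transcription factor that the pathway holds in check, and Igf2bp2, which binds Igf2 mRNA, were also higher at 300 mM than in NS (log2 1.22 and 1.07). Igfbp6, a binding protein that prefers IGF2, was lower at 300 mM (3.74 CPM, against 10.7 CPM in NS) and in ND (3.42 CPM). At 200 mM 7 of 20 were higher and 3 lower, beside 26.8% and 11% of all genes. At 250 mM 5 of 20 were higher and 2 lower, near the 26.5% and 8.69% of all genes. In ND 6 of 21 were higher and 2 lower than in NS, beside 10% and 7.07%, and Igf1 was scarce but higher, at 5.31 CPM in ND, against 0.271 CPM in NS. Igfbp4, another binding protein gene, stood at 8.22 CPM in ND, against 32.9 CPM in NS.

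Genes whose profile over the 5 libraries was most like that of H19 were ranked by the root mean square distance of centred log2 CPM among 7012 genes with at least 20 CPM in some library. The nearest were Cgnl1, a cell junction gene, at a distance of 0.19, then Hist1h1c, St8sia6, E330020D12Rik and AU015836, at 0.19 to 0.22. Cgnl1 stood at 9.23 CPM in ND, 8.44 CPM in NS and 46.6, 53.3 and 44.1 CPM with sorbitol. Hist1h1c is a linker histone gene of a family of related genes, and reads shared among them were not examined. Peg10 ranked 66 and Peg3 705 by this measure. For Igf2 the nearest of 7013 genes were Ly6a, Cd37, Sox21, Crxos and Fxyd2, at distances of 0.28 to 0.62, and H19 ranked 20. Ly6a, a cell surface antigen gene, stood at 5.19 CPM in ND, 8.39 CPM in NS and 140, 150 and 134 CPM with sorbitol. The distances describe 5 libraries, with 1 per condition.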

How the data were processed

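Summed over kept barcodes, UMIs were scaled to CPM in each of 5 droplet single-cell libraries. The deposited matrices hold raw counts of UMIs for each gene in each barcode. Their headers name Cell Ranger 6.0.1, and the counts are used as the authors made them. The submitters' processing notes list the mm10 build, R 4.1.2 and Seurat 4.1.1 but not what each was used for. The extraction protocol in the labels describes Trizol and a Lexogen 3′ library kit, and which steps apply to these droplet matrices was not settled. How exactly 10000 barcodes per library were chosen, and whether counting used strand or which annotation, is not given in the sources used here.

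The 10 genes and all gene lists were chosen with earlier results of these data known. Groups came from the sample labels. Barcodes needed 500 genes or more and no more than 20% of UMIs from mitochondrial genes, and doublets were not called. Kept totals were 7906116 UMIs in ND, 22158653 in NS and 9218297, 9766705 and 8292073 at 200, 250 and 300 mM. Levels have exact Poisson intervals, ratios exact conditional binomial ones and shares exact Clopper-Pearson ones, all at 95% and for counting error only. Counts under 3 UMIs were set to 3, which makes a ratio a bound, and a ratio was left out if neither count exceeded 3 or if that bound pointed away from the difference. Per-barcode values used barcodes thinned at random to 500 UMIs. Genes outside the 10 were named by a rule. It takes up to 6 per list by the largest ratio at 300 mM over NS and up to 3 by ND over NS, the 5 nearest profiles to H19 and to Igf2, the 10 highest and 5 lowest in H19-rich barcodes (without mitochondrial, ribosomal protein and unnamed genes), the 2 highest of each marker list at 300 mM (not all are printed), and neighbours of H19, Igf2 and Cdkn1c that reach 5 CPM. Genes named beyond it, such as Sgce, Ins2, Igf2os and other single markers, were chosen after their values were seen. Gene coordinates are from GENCODE M21 (mm10). The measures were tested on simulated data. Python 3 with numpy, scipy and pandas was used.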

Additional observations from a re-analysis of the deposited data

How the results depend on the processing

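Of 938 values recomputed under an alternative, 706 stayed within a set margin of the main value, 231 moved beyond it and 1 reversed. For a ratio the margin was its interval, so a ratio that moved could keep its direction. Without thinning, which had made depth equal, 48 values moved and 2 stayed the same. The causes were not tested. Scaling by the median of ratios gave H19 log2 ratios to NS of 2.54, 2.28 and 2.49 at 200, 250 and 300 mM. Grb10 became at least 1.5-fold lower than NS at each dose. Totals without mitochondrial and ribosomal protein genes gave H19 2.43 at 250 mM and 2.64 at 300 mM, with 1 gene lower in ND and 1 at 300 mM over NS. With at least 700 genes per barcode, which left 274 barcodes in ND and 579 at 300 mM, H19 stood at 2.69 at 250 mM and 2.47 at 300 mM over NS. In barcodes with no UMI of the trophoblast list, H19 stood at 0.57 in ND and 2.95, 2.39 and 2.82 with sorbitol. There the log2 ratio of Cdkn1c at 250 mM over NS was −0.0205 (0.96 in all kept barcodes), a change of sign to nearly no difference. In barcodes with no UMI of the fibroblast list, H19 at 250 mM stood at 2.59. These last alternatives were chosen after seeing the data and on unthinned counts. They left out more barcodes of the deeper NS library, so their ratios to NS do not show what the barcodes left out contribute. Under a 2-fold rule 0 genes were higher between neighbouring doses, and 1 (Meg3) was lower at 300 mM than in ND. With 3 UMIs in place of 5 CPM as the minimum, 2 genes (Igf2 and Cdkn1c) were lower in ND than in NS. For these rules and for the other scalings above, the share of all genes past the fold was not computed. The numbers of genes higher or lower under them are thus only a description. No paired analysis was possible because each condition had 1 library. Igf2 and Cdkn1c, with at most 150 and 97 UMIs in a library, are limited by counts.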
